A study of Mus musculus with 4 samples.

Results

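The genes examined here were Paxip1, which encodes the protein PTIP, and 9 genes that encode the H3K4 methyltransferases of the COMPASS family or enzymes and cofactors that travel with them. They were chosen by name, 10 of the 55487 genes in the count table, and all 10 passed the filter on low counts. They are the methyltransferase genes Kmt2a, Kmt2b, Kmt2c, Kmt2d, Setd1a and Setd1b, the H3K27 demethylase genes Kdm6a and Kdm6b, and Ncoa6, a coactivator gene. Polyadenylated RNA had been sequenced from cells of the lower incisor of C57 mice at postnatal day 30, and the sort had kept cells without CD45, Ter119 or Tie2, markers of blood and endothelial cells. The labels call them dental progenitor cells of the dental pulp. The knockout group was 2 libraries from Ptip f/f;Sp7-cre mice, in which Cre is driven by Sp7, active in cells that form bone and dentin. The control group was 2 libraries from Ptip f/f mice, which carry the same floxed alleles and no Cre, so loss of Ptip and presence of Cre cannot be told apart. Cells in which Sp7 was never active are expected to keep intact alleles, and the sort did not select for Cre activity. The labels do not say whether libraries came from separate or pooled animals, so p-values measure only the spread between these libraries. That spread is not only technical, since libraries of the same group differed in Xist and in Y-linked RNA (values with Kdm6a). Control library 1 held 838 counts of Xist and 190 counts of the Y-linked gene Uty, and control library 2 held 3308 and 46. Knockout library 1 held 2272 and 5, and knockout library 2 held 104 and 565. Whether any library came from pooled animals was not tested.

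Each COMPASS complex joins a catalytic SET domain protein to a core of WDR5, RBBP5, ASH2L and DPY30, which the complexes share. KMT2C and KMT2D place mostly single methyl groups at enhancers, and their complexes alone also hold PTIP, its partner PA1, NCOA6 and the demethylase UTX, the product of Kdm6a. KMT2A and KMT2B work with menin, and SETD1A and SETD1B, which carry much of the trimethylation at promoters, work with CXXC1 and WDR82. PTIP has no methyltransferase activity itself and has further roles in the response to DNA damage.

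The 6 methyltransferases form 3 pairs of close relatives that end in the same catalytic region, and the similarity bears on whether short reads can be given to one gene. The last 90 coding bases of the longest coding transcript of each gene, with the stop codon, are shown from GENCODE release M21 (GRCm38), with capitals at the positions where the gene differs from its partner.
Kmt2a: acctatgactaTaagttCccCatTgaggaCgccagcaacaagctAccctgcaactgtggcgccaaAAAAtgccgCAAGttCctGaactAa
Kmt2b: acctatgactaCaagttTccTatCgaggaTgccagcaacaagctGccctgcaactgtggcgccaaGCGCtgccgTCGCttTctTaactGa
Kmt2c: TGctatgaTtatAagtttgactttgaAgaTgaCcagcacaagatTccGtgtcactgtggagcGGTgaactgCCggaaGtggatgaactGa
Kmt2d: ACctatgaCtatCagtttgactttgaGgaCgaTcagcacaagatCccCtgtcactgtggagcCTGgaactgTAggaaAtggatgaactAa
Setd1a: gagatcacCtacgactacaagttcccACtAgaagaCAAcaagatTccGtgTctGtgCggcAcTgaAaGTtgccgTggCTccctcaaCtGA
Setd1b: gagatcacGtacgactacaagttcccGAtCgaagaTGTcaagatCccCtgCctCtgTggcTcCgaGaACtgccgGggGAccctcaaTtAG
Even in this conserved end, Kmt2a and Kmt2b matched at 73 of 90 positions (81.1%), Kmt2c and Kmt2d at 74 (82.2%), and Setd1a and Setd1b at 67 (74.4%). Between pairs, identity ranged from 44.4% for Kmt2d and Setd1a to 70.0% for Kmt2a and Kmt2d. Over whole transcripts, the share of 50-base words that also occur in a transcript of another gene was 0% for Kmt2b and Ncoa6. It lay between 0.14% and 2.19% for Paxip1, Kmt2a, Kmt2c, Kmt2d, Setd1b, Kdm6a and Kdm6b. Setd1a was the exception, with 51.2%. Its exons overlap those of Gm49388, a gene annotated on the same strand of chromosome 7, over 52.3% of their length together with an opposite-strand gene. Gm49388 was listed at 0 counts in all 4 libraries, so Setd1a counts are uncertain and may leave out reads from the overlapped exons.

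The libraries held 17770831 to 19142757 counts in knockouts and 15154246 to 15394782 in controls. Of 17128 genes tested by edgeR's quasi-likelihood test, 0 were called at an adjusted p under 0.05 (0%), and 2948 (17.2%) had an unadjusted p under 0.05. DESeq2 called 1461 of 17378 genes (8.41%), 2.72% higher and 5.69% lower in knockouts, and limma-voom called 0. Cells outside the dental mesenchyme contributed RNA in every library. Ptprc, the gene of CD45, had 39.2 and 9.25 CPM (counts per unit of library size, scaled by the TMM method) in knockouts 1 and 2, against 140 and 144 in controls 1 and 2. Tek, the gene of Tie2, had 44.8 and 41.8 CPM in knockouts, against 21.7 and 81.2 in controls. Krt14, a keratin gene of epithelium, had 156 and 229 CPM in knockouts, against 514 and 236 in controls. Msx1, a marker of dental mesenchyme, had 2912 and 2525 CPM in knockouts, against 724.5 and 847 in controls. Dspp, which marks odontoblasts, had 23.5 and 0.729 CPM in knockouts, against 26.2 and 244 in controls. The markers Msx1, Pax9, Dspp, Ptprc, Hbb-bs, Tek, Cdh5, Krt14, Amelx and Sox10, which define the cell type lists, were above 0 in all 4 libraries.

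Paxip1, on chromosome 5 (GRCm38 chr5:27740080-27791691, minus strand), was the one gene of the 10 that stood far apart between the groups. Its knockout libraries held 111 and 71 counts, against 407 and 696 in the control libraries. This corresponds to 5.69 and 3.98 CPM in knockouts, against 28.3 and 44.3 CPM in controls. The highest knockout value was thus well below the lowest control value. The fitted level in knockouts was 0.133 of that in controls (log2 fold change -2.91, SE 0.48, n = 2 each), and 3.63% of all tested genes had a lower fold change. With edgeR it missed the threshold (adjusted p = 0.150), at rank 56 of 17128 by p. DESeq2 called it (adjusted p = 9.03e-06), where 5.69% of genes were called lower, and limma-voom did not (adjusted p = 0.0811). Some other edgeR fits called it too, each with its own share of genes called lower in knockouts. That share was 1.12% without control 1 (Paxip1 adjusted p = 0.00948) and 3.69% without knockout 1 (adjusted p = 0.00669). It was 3.2% without the filter on low counts (adjusted p = 1.4e-05) and 1.06% with a filter of at least 1 CPM in every library (adjusted p = 0.0405). The counts cover every annotated exon, so RNA from exons outside the deleted part still counts. In bulk RNA, fewer cells that express a gene and less RNA per cell cannot be told apart.

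Marker lists of cell types were counted by genes whose groups did not overlap. Among all tested genes, both knockouts lay below the controls for 24.9% and above them for 25.8%. Of 12 tested leukocyte markers, 9 lay lower in each knockout than in either control and 0 higher, and their summed level was 235.5 to 903 CPM in knockouts, against 1964 to 5216 CPM in controls. All 14 cell cycle genes were lower in both knockouts, with sums of 518.5 to 857 CPM in knockouts and 1775 to 3014 CPM in controls. Erythroid markers were lower for 9 of 10, with sums of 109 to 122 CPM in knockouts and 465 to 525 CPM in controls. Of 16 tested dental mesenchyme and odontoblast markers, 11 were higher and 1 lower, with sums of 19260 to 28910 CPM in knockouts and 18870 to 40800 CPM in controls, most of it Col1a1. Without Col1a1 the mesenchyme sums were 4370 to 4820 CPM in knockouts and 1633 to 2133 CPM in controls. Endothelial markers were lower for 4 of 8, with sums of 433 to 474 CPM in knockouts and 584 to 946 CPM in controls. Of 9 tested epithelial and ameloblast markers 6 were lower, but the sums overlapped, at 34590 to 41560 CPM in knockouts and 22400 to 62060 CPM in controls, most of it Ambn. Without Ambn they did not overlap, at 449.5 to 3589 CPM in knockouts and 4232 to 9479 CPM in controls. Both genes were left out after the sums had been seen, and only from the mesenchyme and epithelial lists, whose full sums overlapped. Single genes again held much of what remained. Of the remaining 4820 CPM of mesenchyme markers in knockout 1, Msx1 held 2912. Amelx had 2395 and 80.0 CPM in knockouts, against 7421 and 2410 CPM in controls, so knockout 1 was almost level with control 2. Schwann cell markers were lower for 3 of 6 and higher for 1, with sums of 120 to 143 CPM in knockouts and 376 to 531 CPM in controls. The part of these shifts in the Paxip1 difference was not tested.

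**Figure D1:**
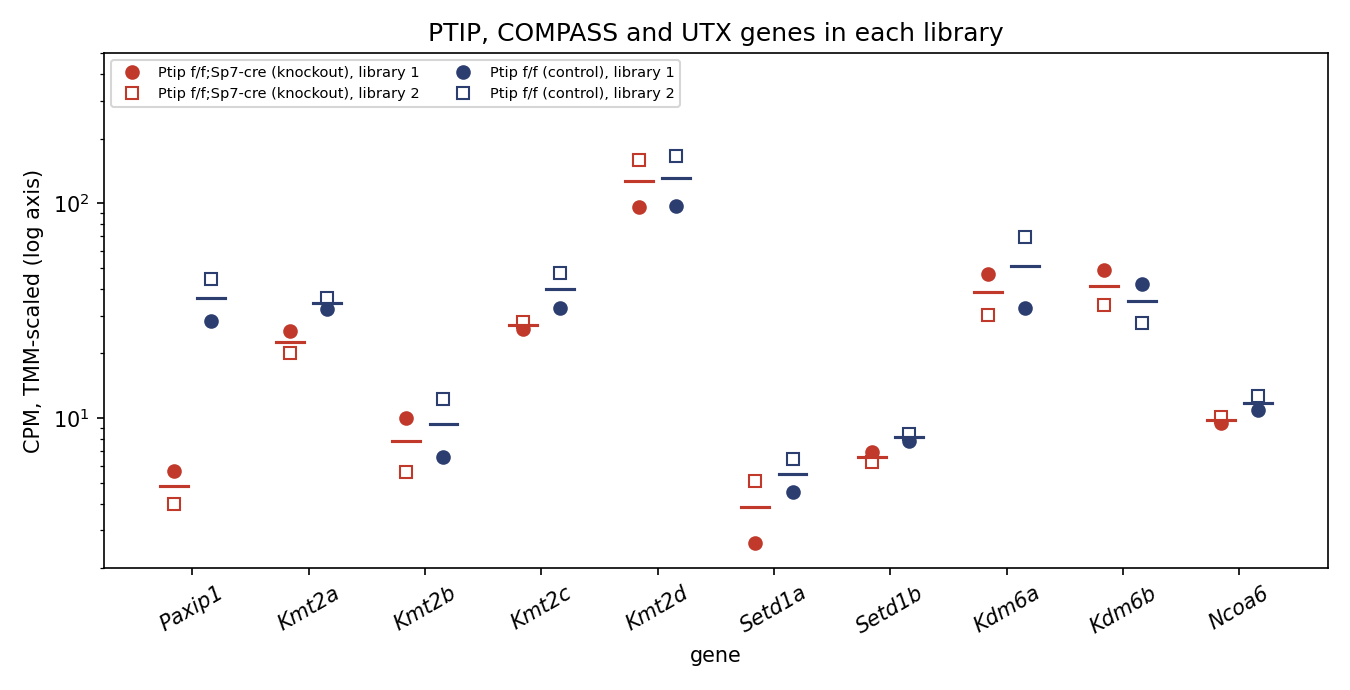
Expression of the 10 genes in each library, as TMM-scaled CPM on a log axis; filled circles are library 1 and open squares library 2 of each group, and short lines are means. Paxip1 lies at 3.98 and 5.69 CPM in knockouts and at 28.3 and 44.3 CPM in controls, while Kmt2d and most other genes lie at similar levels in both groups.

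The genes of the catalytic partners of PTIP, Kmt2c and Kmt2d, lay closer between the groups than Paxip1. Kmt2c (chr5:25271798-25498783, minus strand) had 25.9 and 28.1 CPM in knockouts, against 32.5 and 47.1 CPM in controls. The groups did not overlap, and the log2 fold change was -0.56 (SE 0.38, edgeR adjusted p = 0.519), ranging from -0.78 to -0.30 with 1 library left out. Kmt2d (chr15:98831669-98871204, minus strand) had 95.5 and 158 CPM in knockouts, against 96.9 and 166 CPM in controls. For this gene the libraries of one group differed 1.66-fold (knockouts) and 1.72-fold (controls), and the group means were almost equal at 127 ± 44.3 and 132 ± 49.2 CPM (SD, n = 2 each). The log2 fold change of Kmt2d was -0.05 (SE 0.42, edgeR adjusted p = 0.970). Counts of Kmt2c were 27.2% and 17.8% of those of Kmt2d in knockouts, against 33.6% and 28.3% in controls, a ratio free of library scaling that was lower in both knockouts.

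NCOA6 belongs to the same complexes. Ncoa6 (chr2:155390656-155473894, minus strand) had 9.48 and 10.1 CPM in knockouts, against 10.9 and 12.7 CPM in controls. Its groups did not overlap but lay close together (log2 fold change -0.26, SE 0.47, edgeR adjusted p = 0.839). Pagr1a, which encodes PA1, had 0 counts in 3 libraries and 1 count in control 2. The annotation places other genes, among them Gm42742 and Pagr1b, over 98.7% of the exon length of Pagr1a, so its absence from the counts says nothing of its expression.

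Of the remaining methyltransferase genes, Kmt2a and Setd1b did not overlap between the groups, Kmt2b and Setd1a did, and none passed the test. Kmt2a (chr9:44803355-44881296, minus strand), best known as the MLL gene rearranged in leukaemia, had 25.4 and 20.1 CPM in knockouts, against 32.3 and 36.0 CPM in controls. It did not overlap between groups (log2 fold change -0.59, SE 0.38, edgeR adjusted p = 0.486) and ranged from -0.76 to -0.38 with 1 library left out. Its relative Kmt2b (chr7:30568858-30588726, minus strand) had 10.1 and 5.60 CPM in knockouts, against 6.61 and 12.2 CPM in controls. The Kmt2b groups overlapped, with a log2 fold change of -0.27 (SE 0.60, edgeR adjusted p = 0.877) that turned to 0.20 without control 2 and to 0.14 without knockout 2.

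Setd1a had the lowest counts of the 6 methyltransferase genes in every library. Setd1a (chr7:127776670-127800122, plus strand) had 51 and 91 counts in knockouts, against 65 and 101 in controls, which is 2.61 and 5.1 CPM in knockouts and 4.52 and 6.43 CPM in controls. The groups overlapped (log2 fold change -0.51, SE 0.71, edgeR adjusted p = 0.785), and without one library the value ran from -1.02 to -0.09. Setd1b (chr5:123142193-123168629, plus strand) had 6.92 and 6.22 CPM in knockouts, against 7.86 and 8.40 CPM in controls. Its groups did not overlap, at a log2 fold change of -0.31 (SE 0.53, edgeR adjusted p = 0.835).

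All 6 methyltransferase genes had negative fold changes, with a median of -0.41 where the median over all tested genes was 0.00. Their summed level was 166 and 223 CPM in knockouts, against 181 and 277 CPM in controls. Over these sums the groups overlapped, and library 2 was the higher one in each group. Most of each sum was Kmt2d (95.5 and 158 CPM in knockouts, against 96.9 and 166 CPM in controls). The sums thus mainly follow that gene. Setting Paxip1 aside, 4 of the 9 genes lay below both controls in each knockout (Kmt2a, Kmt2c, Setd1b and Ncoa6) and 0 were higher. In the whole table the knockout libraries lay below both controls for 24.9% of tested genes and above both for 25.8%. By edgeR 0 of the 9 passed, by DESeq2 and limma-voom 0 passed. Over all tested genes, edgeR called 0% and DESeq2 8.41%. In edgeR 0 of the 9 had an unadjusted p under 0.05, where over all tested genes 9.89% were lower and 7.32% higher at that level.

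Levels of different genes can be compared only per length, here as CPM per kilobase of annotated exon (RPKM). In knockouts, Kmt2d (6.36 ± 2.22 RPKM), Kdm6b (5.93 ± 1.57) and Kdm6a (4.59 ± 1.38) led, and Kmt2a (1.36 ± 0.23) and Kmt2c (1.33 ± 0.08) followed (SD, n = 2). Below them in knockouts came Ncoa6 (1.01 ± 0.05), Kmt2b (0.815 ± 0.33), Setd1a (0.568 ± 0.26), Setd1b (0.544 ± 0.04) and, last, Paxip1 (0.471 ± 0.12). In controls the order was Kmt2d (6.61 ± 2.47 RPKM), Kdm6a (6.11 ± 3.16), Kdm6b (5.02 ± 1.48), Paxip1 (3.53 ± 1.10), Kmt2a (2.05 ± 0.16), Kmt2c (1.96 ± 0.51) and Ncoa6 (1.21 ± 0.14). Kmt2b (0.981 ± 0.41), Setd1a (0.806 ± 0.20) and Setd1b (0.674 ± 0.03) closed it. Paxip1 thus ranked 10 of 10 in knockouts and 4 of 10 in controls.

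Most neighbours in that order did not differ beyond their spread. In knockouts, the libraries of adjacent genes separated only between Kdm6a and Kmt2a and between Kmt2c and Ncoa6. In controls they separated only between Paxip1 and Kmt2a and, again, between Kmt2c and Ncoa6. With the longest annotated transcript as length, Paxip1 ranked 8 in knockouts and 3 in controls. As a further variant, length was taken as only the exon bases that no other gene overlaps. Setd1a then had 0.806 and 1.57 RPKM in knockouts, against 1.39 and 1.98 RPKM in controls. That ranked it 6 in knockouts and 7 in controls. The counts were unchanged, so these values assume that reads from the overlapped exons were left out. The cDNA was primed with oligo-dT, and coverage along long transcripts such as those of Kmt2c and Kmt2d was not tested.

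**Figure D2:**
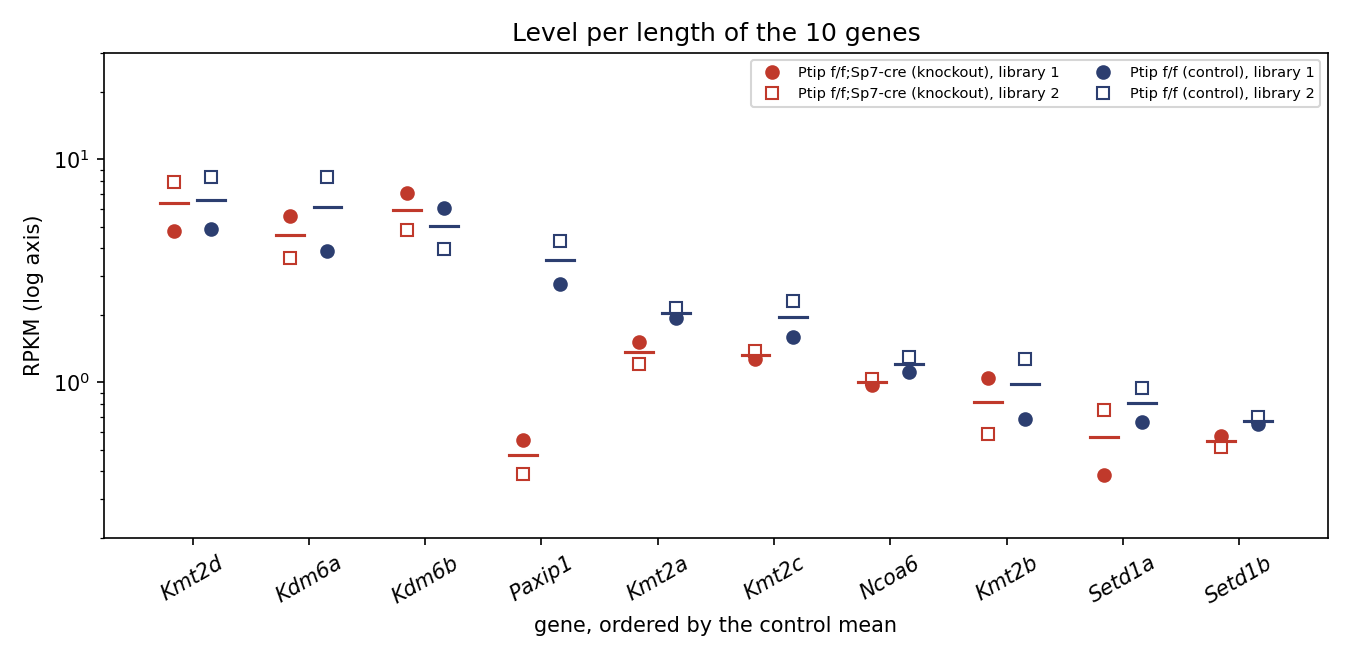
Level per length (RPKM, log axis) of the 10 genes, ordered by their control mean; filled circles are library 1 and open squares library 2 of each group, and short lines are means. Paxip1 sits at 0.471 RPKM on average in knockouts, below the other 9 genes, and at 3.53 RPKM in controls, between Kdm6b and Kmt2a.

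A direct setting of Paxip1 against each of the other genes within a library does not depend on how libraries are scaled. The log2 ratio of Paxip1 counts to Kmt2c counts was -2.18 and -2.81 in knockouts, against -0.20 and -0.09 in controls. To Kmt2d counts it was -4.06 and -5.30 in knockouts, against -1.77 and -1.91 in controls. In counts, Paxip1 amounted to 21.9% and 14.1% of Kmt2c in knockouts, against 87.0% and 94.1% in controls. All 9 ratios separated the groups, with the knockouts below the controls. They share the Paxip1 counts, so they repeat the Paxip1 difference and are not 9 separate results. The difference between group means ran from -2.29 for Kmt2a to -3.14 for Kdm6b on the log2 scale. With 1 library left out, or no pseudocount, the 9 differences ran from -3.76 to -1.59. With 2 libraries against 2, an exact two-sided permutation test cannot go below p = 0.333, so no test is given for these ratios.

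**Figure D3:**
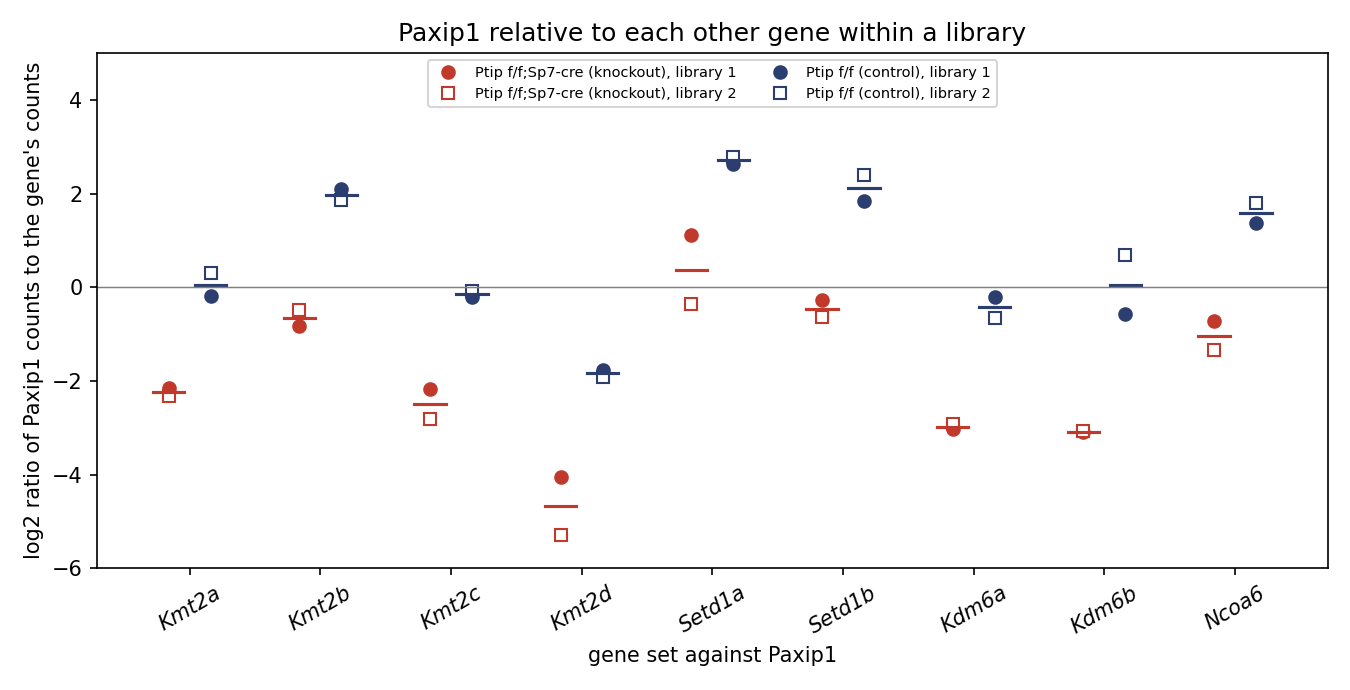
Log2 ratio of Paxip1 counts to the counts of each of the other 9 genes within a library; filled circles are library 1 and open squares library 2 of each group, and short lines are means. For every gene the knockout libraries lie below both control libraries, by 2.29 (Kmt2a) to 3.14 (Kdm6b) between means. All ratios share the Paxip1 counts and so repeat the Paxip1 difference.

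The demethylase genes Kdm6a and Kdm6b overlapped between the groups. Kdm6a (chrX:18162575-18279936, plus strand) had 46.7 and 30.3 CPM in knockouts, against 32.5 and 70.0 CPM in controls. Control 2 held the highest and knockout 2 the lowest level. Its log2 fold change was -0.41 (SE 0.48, edgeR adjusted p = 0.728) and 0.20 without control 2. Kdm6b (chr11:69398508-69413675, minus strand), whose product JMJD3 is inducible by inflammatory signals, had 49.0 and 33.5 CPM in knockouts, against 42.1 and 27.6 CPM in controls. Library 1 was the higher one in each group, and the log2 fold change was 0.24 (SE 0.41, edgeR adjusted p = 0.829), -0.07 without control 2 and -0.05 without knockout 1. Kdm6b was the one gene of the 10 with a positive fold change. Kdm6a counts were 95.4% and 90.5% of Kdm6b counts in knockouts, against 77.1% and 253% in controls, so that control 2 stood alone in this ratio.

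Kdm6a is X-linked, escapes X inactivation in mouse, and has a Y-linked relative, Uty. Their transcripts share 12 words of 50 bases, all in a single run of 61 bases that starts at base 1226 of the Kdm6a coding sequence (chromosome X, GRCm38), shown because a short read within it could come from either gene.
Kdm6a and Uty: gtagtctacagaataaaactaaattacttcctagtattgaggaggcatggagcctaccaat
Uty had 0.256 and 31.7 CPM in knockouts, against 13.2 and 2.93 CPM in controls. Xist, the RNA of the inactive X, had 116 and 5.83 CPM in knockouts, against 58.3 and 211 CPM in controls. Kdm6a, Xist and the X-linked demethylase gene Kdm5c, which also escapes inactivation, ranked the 4 libraries in the same order, from control 2 through knockout 1 and control 1 to knockout 2. Kdm5c had 64.0 and 35.4 CPM in knockouts, against 47.6 and 82.7 CPM in controls. Kdm6a and Uty together came to 47.0 and 62.0 CPM in knockouts, against 45.7 and 72.9 CPM in controls. The Y-linked genes Uty and Kdm5d did not share that order and were highest in knockout 2 and next in control 1, where Kdm6a was lowest. The part of sex-linked differences between libraries in the Kdm6a values was not tested.

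**Figure D4:**
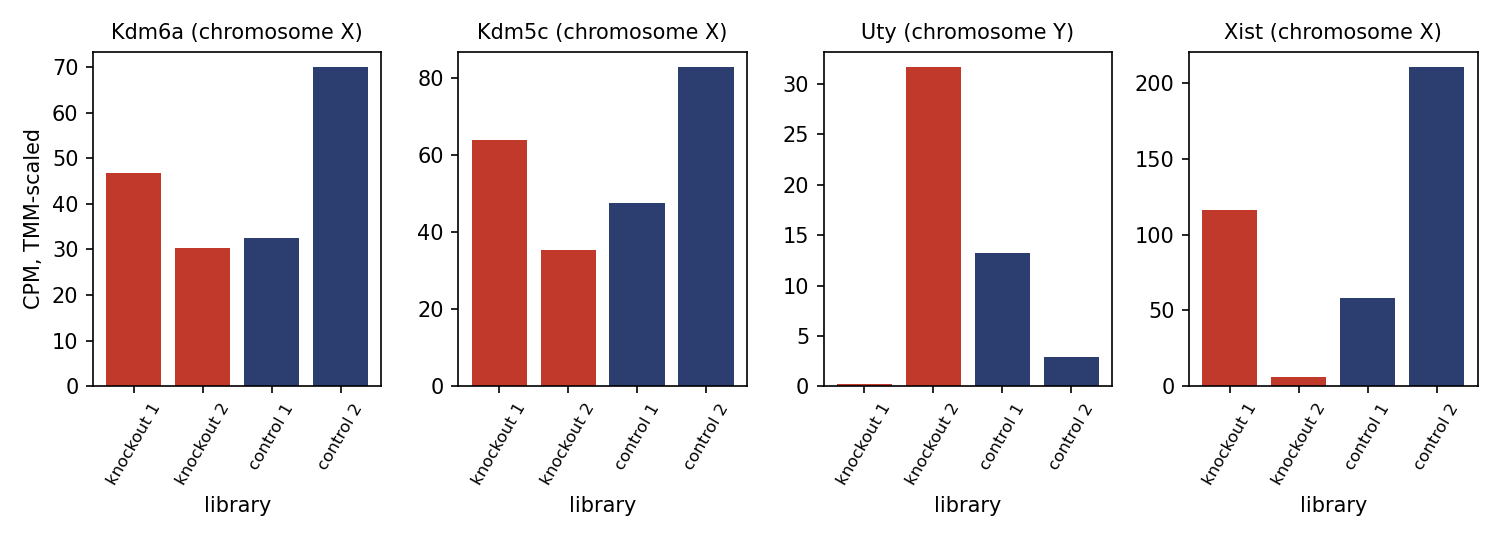
TMM-scaled CPM of Kdm6a, Kdm5c, Uty and Xist in the 4 libraries, 1 bar each. Kdm6a and Kdm5c follow the order of Xist, highest in control 2 and lowest in knockout 2, whereas Uty is highest in knockout 2 (31.7 CPM).

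Among subunits shared by all COMPASS complexes, Ash2l differed from the rest. It had 46.8 and 78.9 CPM in knockouts, against 29.2 and 23.5 CPM in controls. The groups did not overlap, and the level was 2.39-fold that of controls (log2 fold change 1.25, SE 0.41), with an adjusted p of 0.207 in edgeR and 0.0917 in DESeq2. Wdr5 had 49.6 and 48.1 CPM in knockouts, against 85.8 and 63.0 CPM in controls, and Rbbp5 26.7 and 28.8 CPM in knockouts, against 37.3 and 33.5 CPM in controls. Both were lower in both knockouts, as were 24.9% of all tested genes, and Dpy30 overlapped (log2 fold change 0.00, SE 0.44). By edgeR 0 of these 4 passed, as by DESeq2, where 0% and 8.41% of all tested genes were called. Only Ash2l had an unadjusted p under 0.05 in edgeR, where 7.32% of all tested genes were higher and 9.89% lower at that level.

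Of 4 subunits of the KMT2A and KMT2B complexes, 2 had negative and 2 positive fold changes. By edgeR and DESeq2 0 of them passed, where 0% and 8.41% of all tested genes were called. Men1, the gene of menin, had 83.9 and 76.2 CPM in knockouts, against 90.6 and 98.9 CPM in controls. Psip1, which encodes the chromatin tether LEDGF, had 46.5 and 39.3 CPM in knockouts, against 19.9 and 28.5 CPM in controls (log2 fold change 0.83, SE 0.39, edgeR adjusted p = 0.335). In the SETD1 list, also 2 of 4 were negative and 0 passed in either tool. Wdr82 had 44.4 and 36.5 CPM in knockouts, against 18.6 and 18.3 CPM in controls, a 2.19-fold level with little spread (log2 fold change 1.13, SE 0.37, edgeR adjusted p = 0.208). Cxxc1, whose product binds unmethylated CpG, had 116 and 126 CPM in knockouts, against 187 and 155 CPM in controls (log2 fold change -0.50, SE 0.32, edgeR adjusted p = 0.484).

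The enzymes that remove methyl groups from H3K4 had 3 positive and 3 negative fold changes, and 0 of 6 passed in edgeR or DESeq2. Over all tested genes, edgeR called 0% and DESeq2 8.41%. The median log2 fold change of the H3K4 demethylase genes was 0.09, and -0.48 with the stricter filter, limma-voom or a replicate block. It was -0.22 without control 1 or knockout 1, -0.21 without knockout 2 and 0.21 without control 2. Among the 3 positive values was that of the Y-linked Kdm5d (1.10, SE 1.85), so the median of 0.09 rests partly on a gene that differed widely within groups. The stricter filter left Kdm5d out, since it had 0 counts in knockout 1. Kdm1b, a flavin-dependent demethylase gene active in oocytes, had 33.1 and 26.7 CPM in knockouts, against 49.3 and 85.2 CPM in controls. Its groups did not overlap (log2 fold change -1.17, SE 0.41), with an adjusted p of 0.223 in edgeR and 0.107 in DESeq2. Kdm5a had 83.1 and 70.5 CPM in knockouts, against 88.7 and 143 CPM in controls, and its relative Kdm5b had 85.8 and 132.5 CPM in knockouts, against 55.8 and 91.7 CPM in controls. Kdm1a, the gene of LSD1, had 20.7 and 12.2 CPM in knockouts, against 8.48 and 12.0 CPM in controls, so the nearest libraries of the groups were almost level. The Y-linked Kdm5d was at 0 counts in knockout 1 and at 162, 49 and 13 counts in knockout 2, control 1 and control 2.

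Among 7 other SET domain genes linked to H3K4, Smyd2 had the clearest separation. Smyd2, a lysine methyltransferase gene of heart and other tissues whose product also acts on proteins other than histones, had 135 and 125 CPM in knockouts, against 40.5 and 38.5 CPM in controls. The libraries of each group were at most 1.07-fold apart, and the groups were 3.29-fold apart (log2 fold change 1.72, SE 0.32). Smyd2 had an adjusted p of 0.150 in edgeR, 0.0823 in limma-voom and 0.00184 in DESeq2, which called it, and with 1 library left out the fold change ran from 1.65 to 1.81. Kmt2e, which carries the KMT2 name but sits in no COMPASS complex, had 191.5 and 203 CPM in knockouts, against 264 and 245 CPM in controls (log2 fold change -0.37, SE 0.31, edgeR adjusted p = 0.612). Of the 6 that were tested, 3 were higher in both knockouts (Smyd2, Smyd3 and Ash1l) and 2 lower (Kmt2e and Prdm9), against 25.8% and 24.9% of all tested genes, and Smyd1 had 1 count in all.

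**Figure D5:**
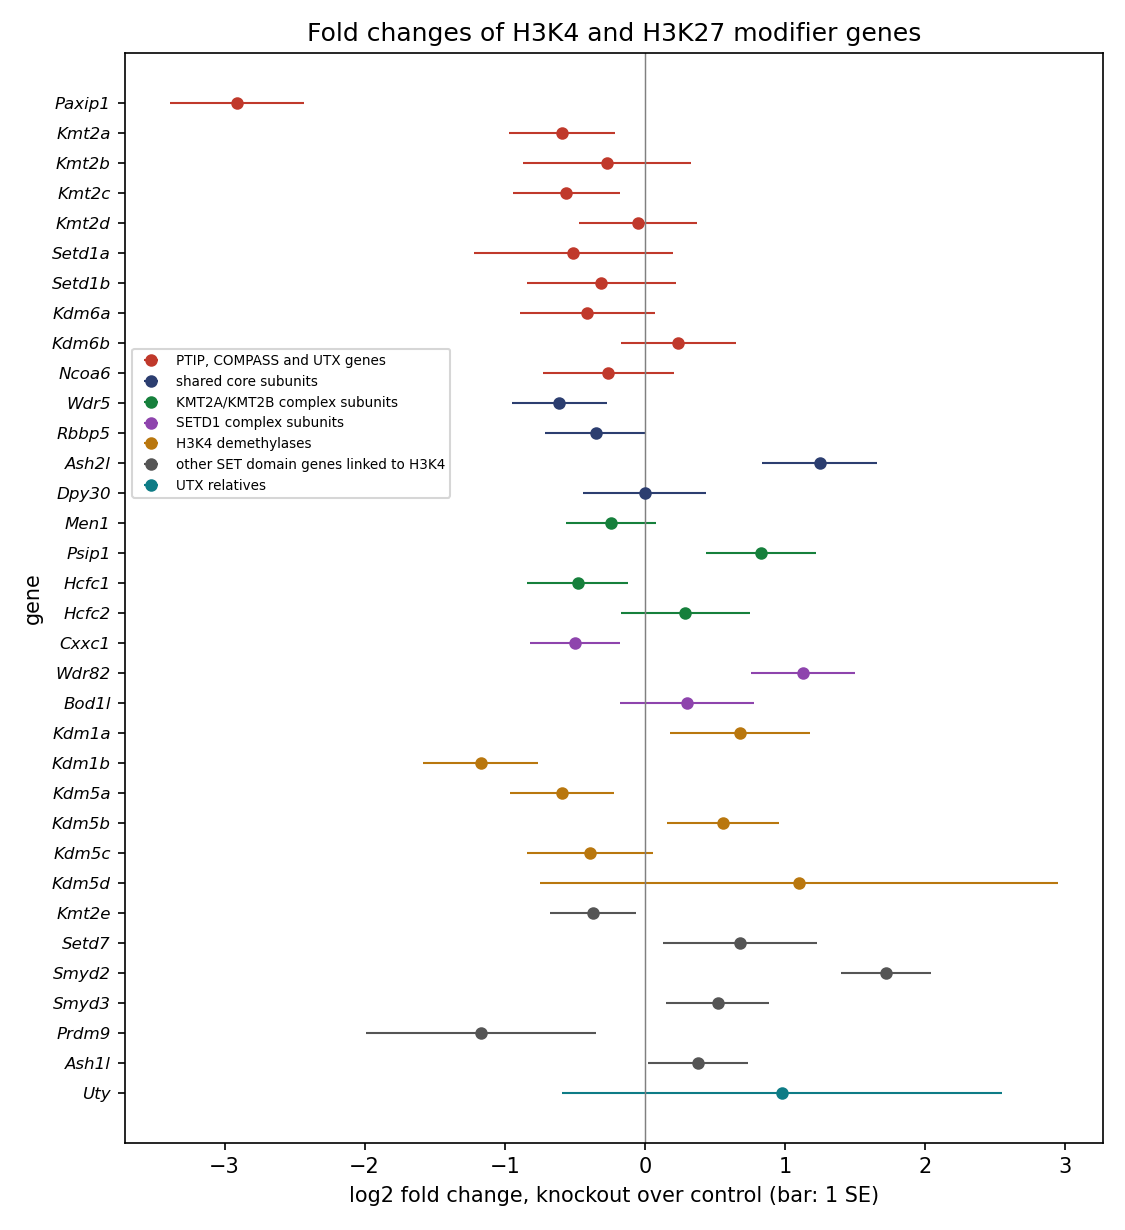
Log2 fold change, knockout over control, of the 10 genes and of the tested genes of the surrounding lists, with bars of 1 SE from edgeR. Paxip1 lies at -2.91 and the other 9 genes between -0.59 and 0.24, while Smyd2 (1.72), Ash2l (1.25) and Wdr82 (1.13) lie on the positive side.

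Among 14389 tested protein-coding genes, those whose profile over the 4 libraries was most like that of Paxip1 were B430306N03Rik, Gpr176, Mc5r, Rasgrp1 and Gfra2. Likeness was the Euclidean distance between log2 CPM profiles, each centred on its own mean, and ran from 0.16 to 0.36 for these 5. Gfra2, a neurturin receptor gene, had 7.48 and 6.22 CPM in knockouts, against 44.6 and 51.8 CPM in controls. Rasgrp1, a Ras activator gene of lymphocytes, had 3.18 and 1.85 CPM in knockouts, against 17.5 and 20.7 CPM in controls. With 4 libraries, such closeness is a description, and 11 genes lay within a distance of 0.5. None of the other 9 genes was among the nearest 5. Their fold changes of -0.59 to 0.24, against -2.91 for Paxip1, already fix that outcome.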

How the data were processed

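The deposited table holds whole-number read counts per Ensembl gene ID for 4 libraries, not normalised by the authors. Per the labels' protocols, reverse transcription used oligo-dT priming with template switching, and 14 PCR cycles and a DNA library kit followed. No molecular identifiers are described. The genome build was GRCm38, and featureCounts 2.0.1, Bowtie2 2.3.5.1 and Trim Galore 0.6.6 are named, per the submitters' processing notes. For annotation release, strand setting and reads that match several genes, the choice is not given in the sources used here. Groups came from sample titles. Symbols, coordinates and exon lengths came from GENCODE M21 (GRCm38), which matched 55227 of 55487 IDs.

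edgeR 4.0.16 (R 4.3.3; TMM, filterByExpr, genotype as the only term, quasi-likelihood F-test, two-sided, Benjamini-Hochberg over 17128 genes, threshold 0.05) was the test. The SE is the absolute log2 fold change divided by the square root of F. The biological coefficient of variation was 49.2%. Ratios used counts plus 0.5. Alternatives were DESeq2 1.42.0 (adjusted p-values it left empty stayed empty), limma-voom (limma 3.58.1), RLE scaling, 2 other filters, a replicate block and leaving out each library. The edgeR, DESeq2 and limma-voom fits were run on simulated data to check the code, and no detection rate for these libraries was drawn from that check. A count of 3 corresponds to 0.157 to 0.198 CPM; this covers counting error only. No library copied another (chi-square per gene 86.7 between the knockouts, 147 between the controls).

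The 10 genes and the lists were chosen with earlier results of these data known. All 10 genes, genes of the short lists around the complexes, defining markers and the 5 genes nearest to Paxip1 in profile were to be named.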

Additional observations from a re-analysis of the deposited data

How the results depend on the processing

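The Paxip1 log2 fold change lay between -3.18 and -2.59 under all 10 alternatives and stayed negative. It passed 0.05 in DESeq2 (-2.92), in edgeR without the low-count filter (-2.92, adjusted p = 1.4e-05, where the gene's own spread does not enter the test) and with at least 1 CPM in every library (-2.99, adjusted p = 0.0405), and the range with 1 library left out was -3.18 to -2.59. It did not pass with RLE scaling (adjusted p = 0.134). The number of the 10 genes called was 0 in edgeR, and 1 in DESeq2, without the filter and with the stricter filter, and 0 to 1 with 1 library left out. Over the whole table, 0 genes were called in edgeR, 1454 without the filter, 193 with the stricter filter, 1461 in DESeq2, 244 with the replicate block and 0 to 918 with 1 library left out. The other 9 genes passed in none of 90 alternative fits, and 83 kept their direction. The exceptions, each from leaving out a library, were in the ranges -0.74 to 0.20 for Kmt2b, -0.42 to 0.36 for Kmt2d, -0.83 to 0.20 for Kdm6a and -0.07 to 0.61 for Kdm6b. The cause was not tested. Same-numbered libraries deviated from their group means with a correlation of 0.109, and no label names a pairing; with the replicate block Paxip1 was -2.89 (adjusted p = 0.0575) and no call among the 10 genes changed. Fits that leave out a library take the spread of the remaining one from the other group. The median over all tested genes was 0.002 with TMM and -0.026 with RLE scaling. The length over exon bases that no other gene overlaps was added after seeing the data. The SEs of 0.38 to 0.71 of the other 9 genes limit what these libraries could detect.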
